A study of Mus musculus with 6 samples.

Results

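Desmosome and adherens junction genes were read across RNA profiles of mouse skin keratinocytes. The genes asked for were 10: the desmosomal cadherins Dsg2, Dsg3, Dsc2 and Dsc3, the plaque genes Dsp, Jup and Pkp1, the desmosomal membrane gene Perp, and the classical cadherins Cdh1 and Cdh3. Every probe set that the platform annotation pairs with 1 of these symbols alone was taken, which gave 14 probe sets for 9 genes out of 12422 probe sets and 8251 named genes on the array. Dsg3 was not analysed here. The cells came from transgenic mice that make enhanced green fluorescent protein (EGFP) from a promoter of keratin 15 (K15), which marks the hair follicle bulge, where the follicle stem cells rest. They were sorted by flow cytometry into EGFP-high and EGFP-negative cells, and both gates took cells positive for α6 integrin, the basal layer receptor encoded by Itga6. There were 3 arrays of EGFP-high and 3 of EGFP-negative cells, so all 6 samples carry the transgene and differ in its signal. The sources used here give no age, sex or hair cycle stage of the animals, and do not say whether replicates came from separate animals or sorts. The p-values therefore rest on the spread among these 6 samples, which may be partly technical.

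Desmosomes are spot-like junctions that tie the keratin filaments of neighbouring cells together. Desmogleins and desmocollins span the gap between cells. Their tails bind plakoglobin (Jup) and plakophilins, and desmoplakin (Dsp) links this plaque to keratin. Adherens junctions are built the same way around the classical cadherins, with catenins as the plaque and actin as the filament. In stratified epithelia Dsg3 and Dsc3 belong mainly to the basal layers, Dsg2 and Dsc2 are found widely in epithelia, and P-cadherin (Cdh3) is kept to basal and follicle cells while E-cadherin (Cdh1) spans the layers.

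The deposited values are linear intensities, scaled so that the arrays share a trimmed mean of 149.96 to 149.97, with medians of 69.55 to 76.05. Bacterial and yeast control probe sets with no mouse target had 95th percentiles of 25.5 to 42.25, which is called the control level below. The sort could be read through Cd34, a surface marker of bulge cells, at 1338.8 to 1579 in EGFP-high against 29.4 to 40.9 in EGFP-negative cells. This Cd34 probe set was above the control level on only 1 EGFP-negative array. It passed the filter on low values used below through the EGFP-high arrays alone. The probe sets of Krt15 and Krt14 were not above the control level on any array, so the labelled basal and bulge identity has no check through these keratins. Differences below are EGFP-high minus EGFP-negative on the log2(intensity + 19.3) scale, which understates changes near the control level, and a call is a limma adjusted p below 0.05 over 7453 tested probe sets. Levels of different probe sets are not comparable with each other, and in sorted bulk RNA fewer cells of a type and less RNA per cell cannot be told apart.

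Dsg2 and Pkp1 were lower in EGFP-high cells, and no junction member was called higher. Of the 14 probe sets 11, from 8 genes, passed the filter on low values. Of these 3 were called lower, where 2.17% of all tested probe sets were, and 0 higher, where 3.02% were. The 3 stand for 2 genes, since both probe sets of Pkp1 are among them. At the largest difference, Dsg2 read 2.94 times as high in EGFP-negative as in EGFP-high cells. The classical cadherins, Dsp and Perp showed no called difference. The second Dsg2 probe set passed the filter through the EGFP-negative arrays alone. The median difference over the 11 was -0.34, or -0.233 over the 10 that passed in both groups, beside -0.00167 over all tested probe sets. With both arrays of replicate number 1 left out, an alternative added once the data had been seen, 3 were again called lower. With the replicate number as a block 3 were called lower, where 5.31% of all tested probe sets were, and 0 higher, where 5.13% were.

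**Figure D1:**
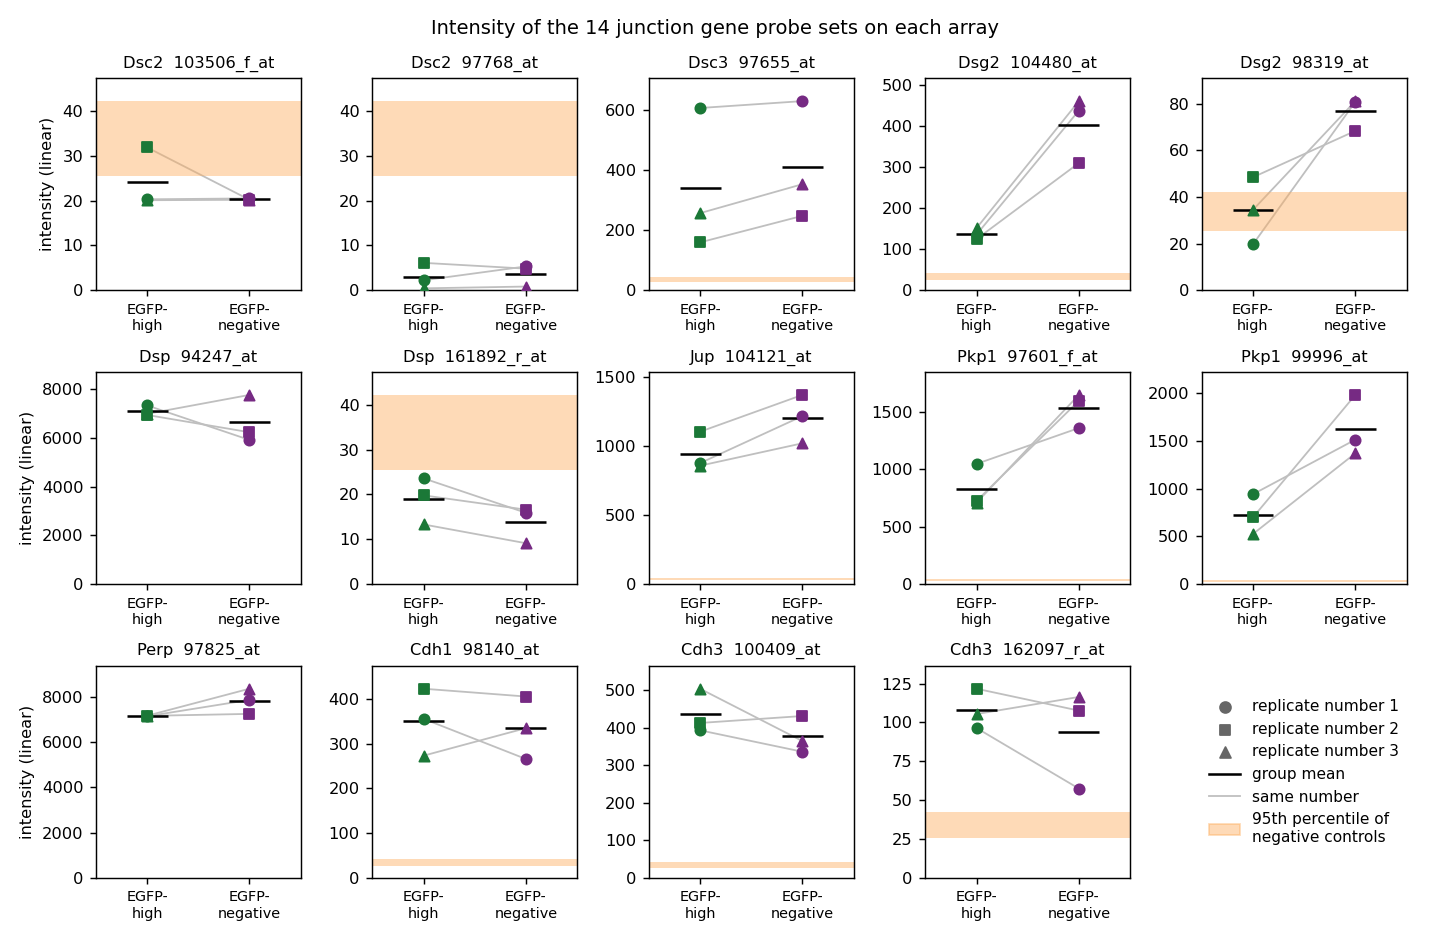
Deposited linear intensity of each of the 14 probe sets on the 6 arrays, EGFP-high (green) left of EGFP-negative (purple), with a marker shape for each replicate number, grey lines joining equal numbers and black bars at the group means. The orange band spans the 95th percentiles of the control probe sets (25.5 to 42.25); Dsg2 and Pkp1 separate the groups on both of their probe sets, while both Dsc2 probe sets and the second Dsp probe set stay at or under the band.

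Of the desmosomal cadherins only Dsg2 and Dsc3 could be read, and of these Dsg2, which encodes desmoglein 2, was called. Its probe set 104480_at read 135.4, 124.3 and 151.1 in EGFP-high replicates 1, 2 and 3, against 437.8, 309.8 and 460.7 in EGFP-negative replicates 1, 2 and 3. All EGFP-high arrays lay in a narrow range well under the lowest EGFP-negative array. The group means were 137 ± 13.5 in EGFP-high arrays, against 403 ± 81.3 in EGFP-negative cells (SD, n = 3 each). The log2 difference was -1.42 (SE 0.19, limma adjusted p = 0.00292), and the 3 same-numbered pairs gave -1.56, -1.20 and -1.49. The call held with every array left out in turn, with an adjusted p of at most 0.0162.

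The other Dsg2 probe set, 98319_at, was dimmer and did not pass the threshold. It read 19.7, 48.5 and 34.5 in EGFP-high against 80.9, 68.4 and 81.2 in EGFP-negative cells, so the groups did not overlap here either. EGFP-high replicate 1 was under the control level of its array. The log2 difference was -0.88 (SE 0.25, limma adjusted p = 0.0982). It ranged from -1.13 with a pseudocount of 4.82 to -0.47 with one of 77.2.

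The desmocollins gave no call. Dsc3, the basal desmocollin, read 608.1, 159.4 and 257.0 in EGFP-high replicates 1, 2 and 3, against 631.1, 248.0 and 353.7 in EGFP-negative replicates 1, 2 and 3. Arrays of equal number resembled each other more than arrays of the same group: both arrays of number 1 were the highest of their group, and both of number 2 the lowest. Within the pairs EGFP-high was the lower of the 2 each time, by log2 -0.05, -0.58 and -0.43. The mean difference was -0.36 with a 95% interval of -1.39 to 0.68 (limma adjusted p = 0.76; 0.203 with the replicate number as a block). Without EGFP-high replicate 2 it was 0.05.

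Dsc2 could not be followed on these arrays. Its probe sets read 20.1 to 31.9 and 0.4 to 6.1 in EGFP-high, against 20.2 to 20.5 and 0.8 to 5.3 in EGFP-negative cells, under the control level on every array. Neither was tested. The within-array log2 ratio of Dsc3 over Dsc2 differed by -0.48 between EGFP-high and EGFP-negative cells (exact permutation test, two-sided p = 0.6, n = 3 each), and by 0.06 without EGFP-high replicate 2. With Dsc2 at the control level, this ratio holds little beyond the values of Dsc3. In the GRCm38.p6 gene table of RefSeq, Dsg2, Dsg3, Dsc2 and Dsc3 lie together on chromosome 18.

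Of the plaque genes, Pkp1 was lower and Dsp and Jup were not called. Pkp1 encodes plakophilin 1, which clusters desmosomal cadherins and is most abundant in the upper layers of stratified epithelia. Probe set 99996_at read 942.2, 699.4 and 524.5 in EGFP-high replicates 1, 2 and 3, against 1515.3, 1985.1 and 1372.2 in EGFP-negative replicates 1, 2 and 3. Every EGFP-high array was under every EGFP-negative array. The means were 722 ± 209.8 in EGFP-high arrays, against 1624 ± 321 in EGFP-negative cells (SD, n = 3 each), a log2 difference of -1.17 (SE 0.23, limma adjusted p = 0.0214). The other probe set, 97601_f_at, carries the suffix that Affymetrix gives to probes matching several related transcripts. It read 1045.4, 723.2 and 708.1 in EGFP-high against 1357.9, 1594.7 and 1646.3 in EGFP-negative cells, a log2 difference of -0.90 (SE 0.19, limma adjusted p = 0.0271). On both probe sets the pair of number 1 differed least, by -0.68 and -0.37, while the other pairs lay between -1.48 and -1.12.

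The size of the Pkp1 difference varied less than its call. Adjusted p on 99996_at was 0.0758 when EGFP-high replicate 2 was left out, 0.0816 when EGFP-high replicate 3 was and 0.0763 when EGFP-negative replicate 2 was. On 97601_f_at it was 0.117, 0.126 and 0.0922 without the same arrays, 0.0917 without EGFP-negative replicate 3 and 0.0633 after quantile normalization. Over these and the other alternatives the log2 difference stayed between -1.42 and -0.97 on 99996_at and between -1.16 and -0.785 on 97601_f_at.

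Jup encodes plakoglobin, the catenin shared by desmosomes and adherens junctions. It read 874.3, 1101.7 and 855.7 in EGFP-high replicates 1, 2 and 3, against 1215.1, 1368.3 and 1018.1 in EGFP-negative replicates 1, 2 and 3. The groups overlapped, since EGFP-high replicate 2 was above EGFP-negative replicate 3, and EGFP-high was the lower in each same-numbered pair. The log2 difference was -0.34 with a 95% interval of -0.74 to 0.06 (limma adjusted p = 0.379; 0.114 with the replicate number as a block).

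Dsp, the desmoplakin gene, was bright on every array through probe set 94247_at. It read 7337.7, 6945.3 and 6990.2 in EGFP-high against 5918.5, 6235.0 and 7769.1 in EGFP-negative cells. EGFP-negative arrays spread on both sides of the EGFP-high arrays. The log2 difference was 0.10 with a 95% interval of -0.25 to 0.46 (limma adjusted p = 0.797). The second Dsp probe set, 161892_r_at, read 13.3 to 23.6 in EGFP-high against 9.1 to 16.6 in EGFP-negative cells, under the control level, and was not tested.

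Perp encodes a tetraspan membrane protein of desmosomes that is a target of p63 and p53. It read 7146.2, 7163.3 and 7169.4 in EGFP-high replicates 1, 2 and 3, against 7870.7, 7252.3 and 8365.8 in EGFP-negative replicates 1, 2 and 3. The EGFP-high arrays were nearly equal and all lay under the lowest EGFP-negative array, yet the log2 difference was only -0.13 with a 95% interval of -0.44 to 0.19 (limma adjusted p = 0.719). After quantile normalization it was 0.05, so its direction depends on the scaling. Trp63, the gene of p63, read 1021.5 to 1382.6 in EGFP-high against 1430.5 to 1672.3 in EGFP-negative cells (log2 -0.36, limma adjusted p = 0.317).

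Promoters of Dsp and Jup were taken from RefSeq, 300 bases each of build GRCm38.p6, from 250 before to 50 after the start. They are shown because Snail, Slug and Zeb factors, which lower E-cadherin in many epithelia, bind the E-box letters CAGGTG, searched here on both strands. Of the genes of those factors, Snai1, Snai2 and Zeb1 were among the named genes on the array, and Zeb2 was not. The Dsp window is chr13:38151044-38151343 on the plus strand and the Jup window chr11:100397741-100398040 on the minus strand. Capitals mark the E-box letters.
Dsp: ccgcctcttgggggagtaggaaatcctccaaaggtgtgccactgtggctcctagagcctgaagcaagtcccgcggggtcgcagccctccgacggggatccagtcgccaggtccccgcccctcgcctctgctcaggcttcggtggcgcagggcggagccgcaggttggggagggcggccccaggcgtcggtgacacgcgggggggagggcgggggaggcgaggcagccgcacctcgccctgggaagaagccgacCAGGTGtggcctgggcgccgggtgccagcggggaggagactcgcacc
Jup: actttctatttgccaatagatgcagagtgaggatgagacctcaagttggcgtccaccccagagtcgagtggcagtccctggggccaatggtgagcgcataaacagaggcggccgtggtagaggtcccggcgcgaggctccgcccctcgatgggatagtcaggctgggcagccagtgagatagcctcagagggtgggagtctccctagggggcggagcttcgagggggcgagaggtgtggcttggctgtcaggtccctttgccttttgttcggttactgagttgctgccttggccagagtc
The Dsp window holds 1 match, which begins at base 4 of the transcript, and the Jup window 0. Of 32851 windows of this length 20.2% hold at least 1. Neither gene was called, and of the factors Snai2 (Slug) read 597.0, 822.8 and 677.3 in EGFP-high against 565.8, 819.7 and 559.4 in EGFP-negative cells, log2 0.12 (limma adjusted p = 0.832). Without EGFP-high replicate 2 that difference was -0.01. Zeb1 read 36.6 to 61.0 in EGFP-high against 48.0 to 78.2 in EGFP-negative cells, log2 -0.19 (limma adjusted p = 0.758). Snai1 was above the control level on 1 EGFP-negative array only and was not tested.

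Neither classical cadherin was called. Cdh1, the E-cadherin gene, read 355.9, 423.4 and 273.4 in EGFP-high replicates 1, 2 and 3, against 266.0, 405.9 and 335.1 in EGFP-negative replicates 1, 2 and 3. The groups overlapped widely, and the same-numbered pairs gave 0.40, 0.06 and -0.28. The log2 difference was 0.06 with a 95% interval of -0.42 to 0.54 (limma adjusted p = 0.928). Its sign turned with single arrays left out (-0.08 without EGFP-high replicate 2) and without both arrays of number 1 (-0.11).

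Cdh3, the P-cadherin gene, is expressed in the hair placode and in the growing follicle. Its brighter probe set, 100409_at, read 393.5, 413.1 and 504.5 in EGFP-high against 336.3, 431.6 and 364.8 in EGFP-negative cells. EGFP-negative replicate 2 was above EGFP-high replicates 1 and 2, so the groups overlapped. The log2 difference was 0.20 with a 95% interval of -0.18 to 0.58 (limma adjusted p = 0.625). The other probe set, 162097_r_at, read 96.4, 121.7 and 105.4 in EGFP-high against 57.4, 107.6 and 116.4 in EGFP-negative cells, with the same log2 difference of 0.21 (limma adjusted p = 0.735). Without EGFP-negative replicate 1 the value of this probe set was -0.05.

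The balance of the classical cadherins was compared within each array. The log2 ratio of Cdh3 over Cdh1 averaged 0.31 ± 0.46 in EGFP-high arrays, against 0.17 ± 0.13 in EGFP-negative cells (SD, n = 3 each), a difference of 0.14 (exact permutation test, two-sided p = 0.8). Both intensities come from different probe sets, so only the difference between groups can be read. Without EGFP-high replicate 3, where the ratio was 0.84, the difference was -0.12. With 3 arrays against 3 this test cannot give a p below 0.1. In the RefSeq gene table both genes lie on chromosome 8.

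**Figure D2:**
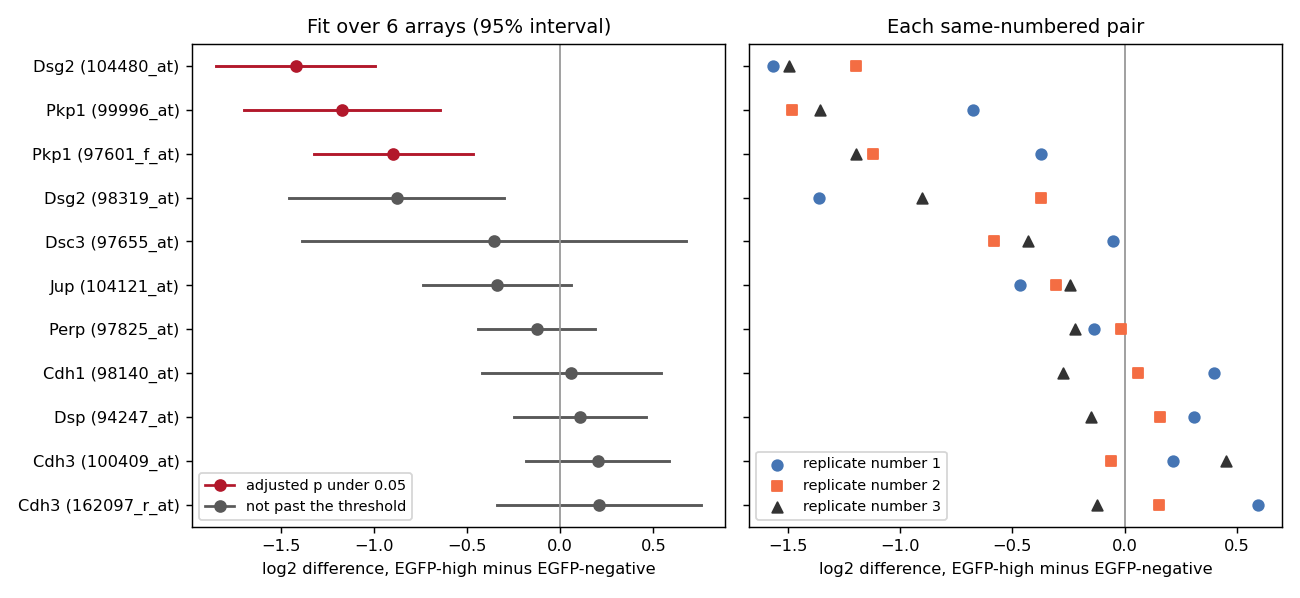
Left, log2 difference (EGFP-high minus EGFP-negative) of each tested probe set with its 95% interval from the limma fit, red where the adjusted p was below 0.05. Right, the same difference within each same-numbered pair of arrays; Dsg2 and Pkp1 lie left of 0 in all 3 pairs on both probe sets, and Cdh1 and Dsp lie on both sides of 0.

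Across members, 5 of the 11 tested probe sets had groups that did not overlap, all lower in EGFP-high, where 11.1% of all tested probe sets did so. None had all EGFP-high arrays above all EGFP-negative arrays, as 11.6% of all tested probe sets had. These were the probe sets of Dsg2, Pkp1 and Perp. Those lower in all 3 same-numbered pairs were 7, adding Dsc3 and Jup, against 22.9% of all tested probe sets. Among the 10 that passed the filter in both groups these counts were 4 and 6. None was higher in all 3 pairs, against 22% of all tested probe sets. The replicate number as a block changed no member's call.

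Other desmosome genes were read from lists of junction genes, each gene by its brightest probe set. Over all 5628 tested named genes 3.06% were called higher and 2.27% lower, or 5.29% and 5.33% with the replicate number as a block. Of 17 other desmosome genes and keratins anchored at desmosomes, 12 were on the array and 8 tested, with 0 higher and 1 lower and a median difference of -0.82. This median includes the keratins Krt1, Krt10 and Krt17, at -1.43, -0.96 and -0.90. Ppl, Dsc1, Plec and Pkp3 had -0.74, -0.39, -0.14 and -0.11, and Dsc1 passed the filter through the EGFP-negative arrays alone. The gene called was Pkp4, which encodes a plakophilin relative of cell junctions. Pkp4 read 204.4, 170.2 and 183.5 in EGFP-high against 649.3, 646.8 and 720.6 in EGFP-negative cells, a log2 difference of -1.75 (SE 0.15, limma adjusted p = 0.000331). The EGFP-high arrays were far below all EGFP-negative arrays, and the call held without any single array (adjusted p at most 0.00363). Pkp3, a plakophilin of many epithelia, read 1034.2 to 1133.2 in EGFP-high against 1051.0 to 1309.5 in EGFP-negative cells (limma adjusted p = 0.766). Pkp2 was not above the control level on any array.

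With the replicate number as a block 4 of these 8 genes were called lower. Beside Pkp4 they were Ppl, the plaque-associated periplakin, and the keratins Krt1 and Krt17. Ppl read 936.7, 811.1 and 559.7 in EGFP-high against 1417.0, 1301.0 and 1111.3 in EGFP-negative cells (log2 -0.74, limma adjusted p = 0.0892; 0.0082 with the block). Krt1, a keratin of suprabasal cells, read 3468.1, 711.5 and 570.2 in EGFP-high against 5336.9, 2939.1 and 1824.5 in EGFP-negative cells (log2 -1.43, limma adjusted p = 0.292; 0.00708 with the block). Krt17 had a log2 difference of -0.90 by its brightest probe set (limma adjusted p = 0.125; 0.00147 with the block), which carries the suffix described for Pkp1. A dimmer Krt17 probe set gave -0.65 (limma adjusted p = 0.263; 0.00795 with the block). The dimmest gave 0.05 and was called in neither fit (limma adjusted p = 0.944; 0.915 with the block). Ppl, Krt1 and Krt17 are named with their values known.

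The adherens junction partners gave 1 call among 15 tested of 17 on the array, with a median of 0.12. Lpp, a LIM protein that binds actin at cell contacts, read 766.9, 697.0 and 656.9 in EGFP-high against 394.3, 436.4 and 426.4 in EGFP-negative cells, log2 0.73 (SE 0.15, limma adjusted p = 0.0218). Its groups lay well apart, but its adjusted p was between 0.0641 and 0.0786 without any 1 of the arrays EGFP-high 2 or 3 or EGFP-negative 1, 2 or 3. Ctnnb1, which encodes β-catenin, the partner of E- and P-cadherin and effector of Wnt signals, read 2573.0, 1775.6 and 2291.7 in EGFP-high against 1892.8, 1225.0 and 1633.6 in EGFP-negative cells. EGFP-high was the higher in every same-numbered pair, and the log2 difference of 0.48 had an adjusted p of 0.278 by limma and of 0.0225 with the block. Ctnna1, the α-catenin gene, and Ctnnd1, the gene of p120-catenin that steadies cadherins at the membrane, had log2 differences of 0.16 and 0.35 (limma adjusted p = 0.662 and 0.553). The second Ctnnd1 probe set gave -0.16. Vasp, an actin assembly factor, was called lower with the block only (log2 -0.65, limma adjusted p = 0.113; 0.0236 with the block).

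Of the other cadherins Celsr1 and Cdh4 were called lower. Of 24 listed, 14 were on the array, 8 of them under the control level on every array, among them Cdh2 (N-cadherin) and Cdh5, the endothelial cadherin. Of the 6 tested 2 were lower and 0 higher. Cdh4, the R-cadherin gene, read 24.5, 15.1 and 17.5 in EGFP-high, under the control level, against 125.8, 161.4 and 105.0 in EGFP-negative cells. It was at least 3.85-fold lower in EGFP-high, taking the 95th percentile of the controls on each array as the floor (limma adjusted p = 0.00165). Cdh4 passed the filter on low values through the EGFP-negative arrays alone, and with no filter its adjusted p was 0.00571 by limma. Celsr1, a planar polarity cadherin of skin, read 122.6, 122.8 and 152.5 in EGFP-high against 263.7, 274.5 and 324.2 in EGFP-negative cells, log2 -1.01 (SE 0.17, limma adjusted p = 0.00833). The Celsr1 call held without any single array, with an adjusted p of at most 0.0405. The Cdh4 call held without each of 5 arrays (adjusted p at most 0.0111), and without EGFP-negative replicate 2 it did not pass the filter and was not tested.

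Tight and gap junction genes were mostly not called. Of 8 tested tight junction genes among 18 on the array 1 was higher and 0 lower. F11r, the junctional adhesion molecule A gene, read 1374.8, 1370.1 and 1185.2 in EGFP-high against 706.1, 793.1 and 933.6 in EGFP-negative cells, log2 0.68 (limma adjusted p = 0.0447). This call was close to the threshold and was lost in 9 of 15 alternatives, with an adjusted p of up to 0.168. The claudin gene Cldn1 was not called by its brightest probe set (log2 -0.39, limma adjusted p = 0.273), while its other probe set gave log2 -0.997 (limma adjusted p = 0.0291). Of 4 tested gap junction genes among 11 on the array 1 was lower. Gja1, which encodes connexin 43, read 2140.3, 1074.4 and 1635.7 in EGFP-high against 3720.4, 3422.0 and 4995.6 in EGFP-negative cells, log2 -1.35 (SE 0.26, limma adjusted p = 0.0168). Its other probe set gave log2 -1.34 (limma adjusted p = 0.00733). The brighter one had an adjusted p of 0.0667 with EGFP-high replicate 3 left out, 0.062 with EGFP-negative replicate 3 left out and 0.0507 after quantile normalization.

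**Figure D3:**
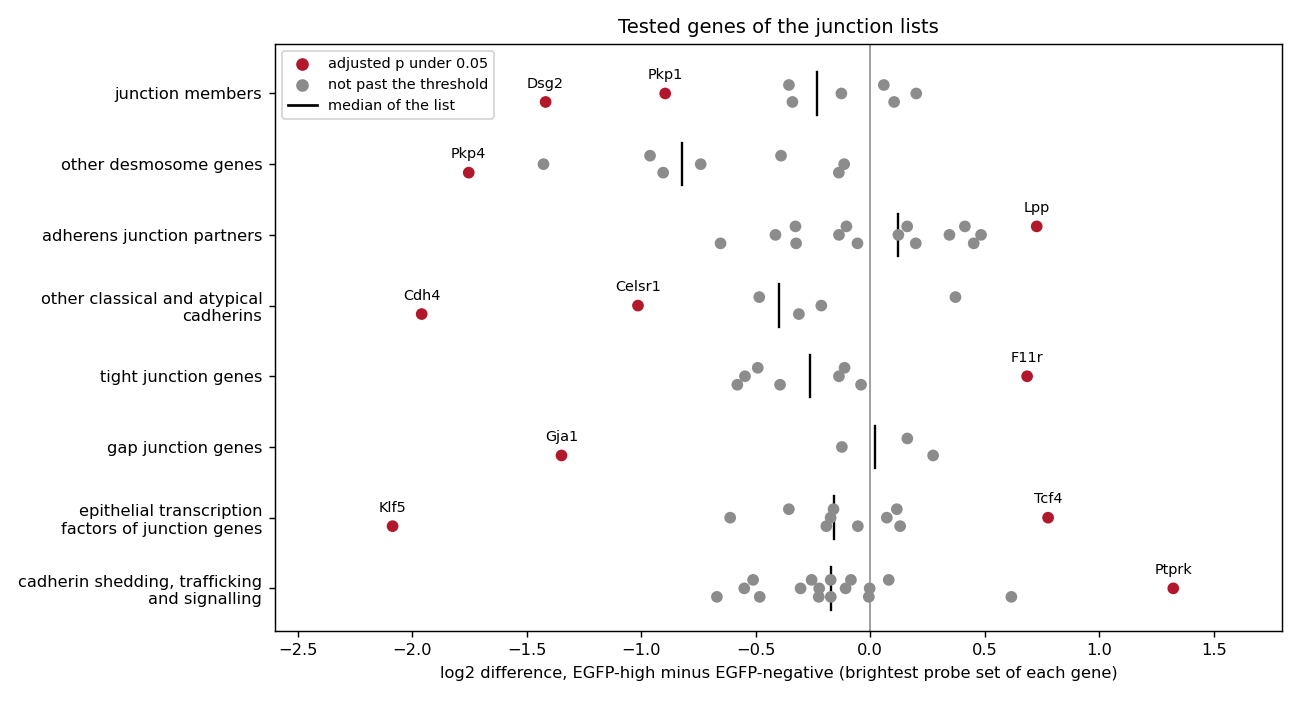
Log2 difference (EGFP-high minus EGFP-negative) of each tested gene in the junction members and 7 related lists, by its brightest probe set, red and named where the limma adjusted p was below 0.05 and with a black bar at each list's median. Called genes lie on both sides of 0, with Pkp4, Cdh4 and Klf5 furthest to the left and Ptprk furthest to the right.

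Regulators of junction genes were called in both directions. Of 11 tested transcription factors 1 was higher and 1 lower. Klf5, a factor of proliferating epithelium, read 807.6, 339.0 and 370.8 in EGFP-high against 2084.9, 1833.1 and 2251.0 in EGFP-negative cells, log2 -2.09 (limma adjusted p = 0.00409). Tcf4, an E protein that binds E-boxes, read 189.0, 230.2 and 180.6 in EGFP-high against 105.8, 97.7 and 121.9 in EGFP-negative cells, log2 0.78 (limma adjusted p = 0.0333). The Tcf4 call was lost in 7 of 15 alternatives, with an adjusted p of 0.139 without EGFP-high replicate 2. Of 17 tested genes of cadherin shedding, trafficking and signalling 1 was higher and 0 lower, or 2 higher and 2 lower with the replicate number as a block. Ptprk, a receptor phosphatase found at cell contacts, read 224.1, 396.1 and 289.7 in EGFP-high against 109.5, 115.0 and 96.0 in EGFP-negative cells, log2 1.32 (SE 0.21, limma adjusted p = 0.00729). The genes added by the block were Ptprf, Adam10 and Iqgap1. Ptprf, a receptor phosphatase of the LAR family, had a log2 difference of 0.62 (limma adjusted p = 0.0756; 0.016 with the block). Adam10, the protease that sheds E-cadherin, had one of -0.67 (limma adjusted p = 0.0739, and 0.0379 with the block). The other Adam10 probe set, with a log2 difference of -0.36, was called in neither fit. Iqgap1, a scaffold that binds E-cadherin and β-catenin, had one of -0.51 (limma adjusted p = 0.299; 0.0323 with the block), while its other probe sets, at -0.13 and -0.56, were called in neither fit.

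Markers of other cells were summed over each list, by the brightest probe set of each gene, so bright probe sets weigh most in a sum. The 12 suprabasal keratinocyte markers on the array summed to 6273 to 20229 in EGFP-high against 16200.5 to 23762 in EGFP-negative cells. Of the 10 tested 0 were called, 1 with the block, and their median log2 difference was -0.34. Krt1, Krt10 and Krtdap had differences of -1.43, -0.96 and -0.96. Casp14, Dsc1, Sprr1a, Sprr1b and Flg had -0.61, -0.39, -0.29, -0.19 and -0.12. Lor had -2.8e-05 and Cdsn 0.10. Krt10 read 8799.4, 4399.2 and 2423.9 in EGFP-high replicates 1, 2 and 3, against 9986.4, 8037.5 and 8705.3 in EGFP-negative replicates 1, 2 and 3. Ivl was not above the control level on any array. EGFP-high replicate 1 was the highest of its group for Krt1, Krt10, Dsc3 and both probe sets of Pkp1. Krtdap, Lor, Casp14 and Dsc1 also peaked there, but Cdsn, Flg and Sprr1b in EGFP-high replicate 2 and Sprr1a in 3. EGFP-negative replicate 1 was the highest of its group for Krt1, Krt10 and Dsc3, but not for Pkp1. It was the lowest on Pkp1 97601_f_at and lay between the others on 99996_at. Without both arrays of number 1 the log2 differences were -1.345 for Dsg2 (104480_at), and -1.42 and -1.16 for the Pkp1 probe sets, all called. Leaving them out removed the pair with the smallest Pkp1 differences. Krt1 and Krt10 stayed lower in EGFP-high in the pairs that remain, so this is no test of suprabasal cells. The part of suprabasal cells in the Pkp1 difference was not tested.

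The 12 Merkel cell and simple epithelium markers, read because simple epithelia carry Dsg2, summed to 623 to 723 in EGFP-high against 517 to 999.4 in EGFP-negative cells, with 0 called. With the block 1 was, Epcam, an epithelial adhesion molecule that is also in the Langerhans cell list (log2 0.54, limma adjusted p = 0.135; 0.0463 with the block). Their genes Krt19, Atoh1, Isl1, Sox2 and Chgb were not above the control level on any array. Melanocytes and Langerhans cells carry E-cadherin too. The 9 melanocyte markers summed to 631 to 778 in EGFP-high against 472 to 567 in EGFP-negative cells, with Mitf called higher and Ednrb not above the control level. Mitf had a log2 difference of 1.13. The other tested melanocyte genes, Pmel, Sox10 and Dct, had 0.49, 0.31 and -0.07 and were not called. The 15 Langerhans cell and macrophage markers summed to 1300.6 to 1706 in EGFP-high against 1099 to 1312 in EGFP-negative cells, with 0 called, Epcam alone called with the block, and Adgre1, Fcer1g, Itgam, Lyz2 and Tyrobp not above the control level. The part of these cells in the cadherin values was not tested. For endothelial cells, T cells, fibroblasts and sebaceous cells the summed ranges of the groups overlapped, and the genes called were Thy1, which is in the T cell and fibroblast lists, lower, and Mgst1 of the sebaceous list, higher. Scd1 of the sebaceous list was lower with the block (log2 -0.73, limma adjusted p = 0.244; 0.0176 with the block), and its second probe set was lower in both fits (log2 -1.55, limma adjusted p = 0.0162). The fibroblast gene Col1a2 was not called by its brightest probe set (log2 -0.03, limma adjusted p = 0.956). Its dimmer one read 76.7, 237.2 and 171.7 in EGFP-high against 15.3, 12.5 and 15.1 in EGFP-negative cells and was called higher (limma adjusted p = 0.00489), having passed the filter through the EGFP-high arrays alone.

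The genes whose pattern over the 6 arrays was most like that of Dsg2 were Oat, Ahr and Itga6. Their root mean square distances were 0.123, 0.128 and 0.141 on the log2 scale after centring, among 5627 other tested named genes. Itga6 read 485.1, 405.6 and 585.3 in EGFP-high against 1178.1, 1050.0 and 1371.4 in EGFP-negative cells. The log2 difference was -1.26 (limma adjusted p = 0.00449), so RNA of the integrin that both gates selected on also differed between the groups. For Pkp1, read here by its brighter probe set 97601_f_at, the nearest were Usp18, Sox6 and Dffa, at 0.0896, 0.0947 and 0.11. The probe set 99996_at was not compared in this way. With 6 arrays in 2 groups, any gene with a similar group difference scores as near.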

How the data were processed

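Labels gave 3 EGFP-high and 3 EGFP-negative samples by title, with 1 Affymetrix array each. The authors deposited 1 linear intensity per probe set and array. A trimmed mean (2% off each end) of 149.96 to 149.97 in every column shows a common scaling, with the software, background method and filters behind it not given in the sources used here. The 66 control rows were left out. Of 12422 other probe sets, 10833 had 1 gene symbol, 396 several and 1193 none. Symbols were looked up by Entrez identifier in the RefSeq table of GRCm38.p6, which matched 10817 and changed 0.

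Log2(intensity + 19.3) was analysed, 19.3 being the 25th percentile of values above 0. Probe sets with a mean above the 40th percentile (an intensity near 44.5) were tested with limma 3.58.1 in R 4.3.3 (lmFit, eBayes with trend, two-sided, Benjamini-Hochberg over 7453 probe sets, 4 residual and 4.96 prior degrees of freedom), tested on simulated data first. Number of arrays limits the precision. The within-array ratio planned for Dsg3 over Dsg2 was not computed.

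Deviations from group means correlated at 0.336, 0.368 and 0.305 between arrays of equal number in the titles, all above the limit of 0.1. Same-numbered arrays were therefore paired in the block fit and in the differences within pairs. The fit without the block is the main one, so its calls, standard errors and intervals leave this pairing out. Block values are printed where they change a call. Members, lists and tests were chosen with earlier results of these data known. The naming rule took every member probe set and, of each other junction list, the genes called (at most 4), with the catenins and E-cadherin repressors. Other list genes in the text were named with their values known. Alternatives changed the pseudocount, filter, scaling, trend, block and arrays used.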

Additional observations from a re-analysis of the deposited data

How the results depend on the processing

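The Dsg2 call on 104480_at and its direction held under all 15 alternatives, with log2 differences of -1.59 to -1.15. Called member probe sets numbered 1 to 3 when single arrays were left out, all lower: 1 without EGFP-high replicate 2, EGFP-high replicate 3 or EGFP-negative replicate 2, where both Pkp1 calls were lost. All tested probe sets called numbered 387 (162 lower, 225 higher). They came to 191 to 499 without single arrays (85 to 234 lower, 106 to 265 higher), and to 778 (396 lower, 382 higher) with the replicate number as a block, which changed no member call. Without single arrays the difference in the Cdh3 over Cdh1 ratio ran from -0.121 to 0.316, that in the Dsc3 over Dsc2 ratio from -1.036 to 0.055, and the log2 differences from -0.854 to 0.051 for Dsc3, -0.089 to 0.218 for Cdh1, -0.051 to 0.361 for Cdh3 162097_r_at and -0.005 to 0.292 for Snai2. Directions also turned for Perp after quantile normalization (0.054) and for Cdh1 without both arrays of number 1 (-0.109, added after the data were seen). None of these was called in either setting, and the cause was not tested. Signal over background limits Dsc2 and the second probe sets of Dsg2 and Dsp.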
